A study of Homo sapiens with 24 samples.

Results

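The nuclear genes for the subunits of respiratory chain complexes I to IV were described across 24 RNA libraries from human embryonic kidney 293 cell lines. They were chosen by name alone: names of the NDUFA, NDUFB, NDUFC, NDUFS, NDUFV, UQCR and COX4 to COX8 series that end in a subunit number or isoform letter, together with SDHB, SDHC and SDHD. The rule took 63 of 58138 gene names. By name series, 37 were assigned to complex I, 3 to complex II, 9 to complex III and 14 to complex IV. NDUFA4, since found to belong to complex IV, is counted with complex I throughout. A further 11 names that fit the pattern are pseudogenes and were left out, as were assembly factors, SDHA, CYC1 and COX4I1. The series examined how RPRD1A, RPRD1B and RPRD2, proteins that bind the tail of RNA polymerase II, affect the steady-state amount of RNA. In HEK293T cells, 48 h of siRNA transfection gave 8 groups of 2 samples: control siRNA, RPRD1A_KD, RPRD1B_KD, RPRD2_KD, RPRD1A_RPRD1A_KD (a label that names RPRD1A in both positions), RPRD1A_RPRD2_KD, RPRD1B_RPRD2_KD and RPRD1A_RPRD1B_RPRD2_KD. The other 4 groups of 2 came from Flp-In T-REx 293 cells, 293 cells built to take up a gene at a fixed site and to switch it on with tetracycline: the parent untreated (FLP) or given tetracycline for 48 h (FLP_TET), and a line labelled RPRD1B_FL without and with tetracycline (RPRD1B_FL, RPRD1B_FL_TET). All Flp-In groups went without siRNA and all HEK293T groups, the control included, were transfected. What FL stands for, and whether that line is 1 clone, are not given in the sources used here.

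The respiratory chain passes electrons from NADH (complex I) and succinate (complex II) through ubiquinone to complex III, and by cytochrome c to complex IV, which reduces oxygen. Complexes I, III and IV pump protons, and the ATP synthase uses the gradient. Each complex apart from complex II mixes core subunits made from mitochondrial DNA with subunits made from nuclear genes, so that the nuclear genes are transcribed by RNA polymerase II while their partners are not. In complex I the catalytic iron-sulfur and flavin subunits carry NDUFS and NDUFV names, and most NDUFA, NDUFB and NDUFC proteins are accessory subunits.

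Levels are given as CPM, a gene's count relative to all counts in genes of its library, scaled between libraries by edgeR's TMM factors. The libraries were made with a kit that reads each transcript once from its 3′ end, so CPM was not divided by gene length. Counts in genes ranged from 1817246 to 3531106 per library, and 3 counts, used as the floor of detection, stand for 0.850 to 1.65 CPM. RPRD1A fell from 157 CPM in the control group to between 19.2 and 25.7 in the 4 groups with RPRD1A in the name. It was also at 75.5 to 92.0 CPM in the 3 other silenced groups, differences that did not pass the test. RPRD2 was at 98.1 CPM in the control group and at 32.0 to 59.9 in the 4 groups with RPRD2 in the name. Its difference did not pass the test in RPRD1A_RPRD2_KD or in RPRD1A_RPRD1B_RPRD2_KD. RPRD1B was at 27.7 CPM in the control group, at 7.55 to 10.3 in the 3 groups with RPRD1B in the name, and also at 10.9 in the group labelled RPRD1A_RPRD1A_KD; none of these RPRD1B differences passed the test over all genes. RPRD1B was at 78.5 CPM in RPRD1B_FL_TET and at 30.7 in FLP_TET. Of 9 markers of 293 cells all were detected in each line, 6 of them over 10 CPM, with a summed level of 245 to 363 CPM in HEK293T and 766 to 951 CPM in Flp-In samples. Summed markers of fibroblasts reached at most 18.2 CPM, with COL1A2 and DCN at 0 in all libraries, those of striated muscle at most 2.52 CPM, with MYH7 and TNNT2 at 0, and those of hepatocytes at most 0.729 CPM. In bulk RNA, fewer cells of a type and less RNA per cell cannot be told apart.

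The subunit genes were abundant, and their levels spanned a wide range. Of the 63 genes, 55 had a mean of 10 CPM or more over the 24 samples, 39 had 100 or more and 8 had 500 or more, and the 10 highest held 44.9% of the summed level. The highest was UQCRH, the acidic hinge protein of complex III, with a mean of 847 CPM and a range of 699.5 to 1019 CPM. NDUFB8, an accessory subunit of the membrane arm of complex I, followed with 816 CPM, and then UQCRQ, a small subunit of complex III, with 667 CPM and COX7C, a small subunit of complex IV, with 638 CPM. The ranges of UQCRH and NDUFB8 overlapped in both lines, as did those of UQCRQ and COX7C in HEK293T samples, while in Flp-In samples UQCRQ (735 to 907 CPM) lay above COX7C (507 to 640 CPM). Complex II was the lowest: SDHB, its iron-sulfur subunit, had a mean of 51.9 CPM, and its membrane anchors SDHC and SDHD had 31.7 and 16.5 CPM.

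Within complex I each name series had its own range of mean levels. In the NDUFS series the highest gene was NDUFS6, a zinc-binding accessory subunit, with 503 CPM, and the lowest NDUFS4, an accessory subunit that is mutated in Leigh syndrome, with 23.2 CPM. In the NDUFV series NDUFV3 had 111 CPM, NDUFV1, which binds NADH and flavin, had 98.0 CPM and NDUFV2 had 1.99 CPM. The NDUFA series ran from 1.98 CPM for NDUFA7 to 388 CPM for NDUFA1, the NDUFB series from 39.2 CPM for NDUFB5 to 816 CPM for NDUFB8, and NDUFC1 and NDUFC2 had 85.9 and 224 CPM. NDUFV2 and NDUFA7 are core and accessory parts of the matrix arm, and both were close to the floor, with 119 and 121 counts in all 24 libraries together. In GENCODE release 29 the last 300 exonic bases of NDUFV2 (18:9102630-9134345, plus strand, GRCh38) overlap a gene of the same strand, AP005263.1, and those of NDUFA7 (19:8308768-8321396, minus strand) overlap AC010323.1. Such a same-strand overlap also exists for 4 abundant genes: NDUFB8 (816 CPM), COX7C (638 CPM), NDUFA13 and COX6A1 (168 CPM). Reads that fit more than 1 gene formed 1.30% to 1.83% of all reads in the tables. How the overlaps bear on the levels of NDUFV2 and NDUFA7 was not tested.

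Where complex IV has tissue forms of a subunit, the widely expressed form held nearly all counts. COX6A2, COX7A1 and COX7B2, the muscle or testis forms of their subunits, were listed at 0 counts in all 24 libraries, which allows up to 1.65 CPM in the shallowest, a limit for counting error only. Their partners COX6A1, COX7A2 and COX7B had means of 168, 510 and 164 CPM. COX8C, a testis form, had 6 counts in all libraries against 487 CPM for COX8A, and COX6B2, also a testis form, had a mean of 0.53 CPM against 281 CPM for COX6B1. UQCRHL, an intronless copy of UQCRH, had 5.97 CPM; reads of the copies can be confused, so its level is uncertain. The 7 genes NDUFA7, NDUFV2, COX6A2, COX6B2, COX7A1, COX7B2 and COX8C did not reach the count filter in any fit, and 56 of the 63 were tested.

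**Figure D1:**
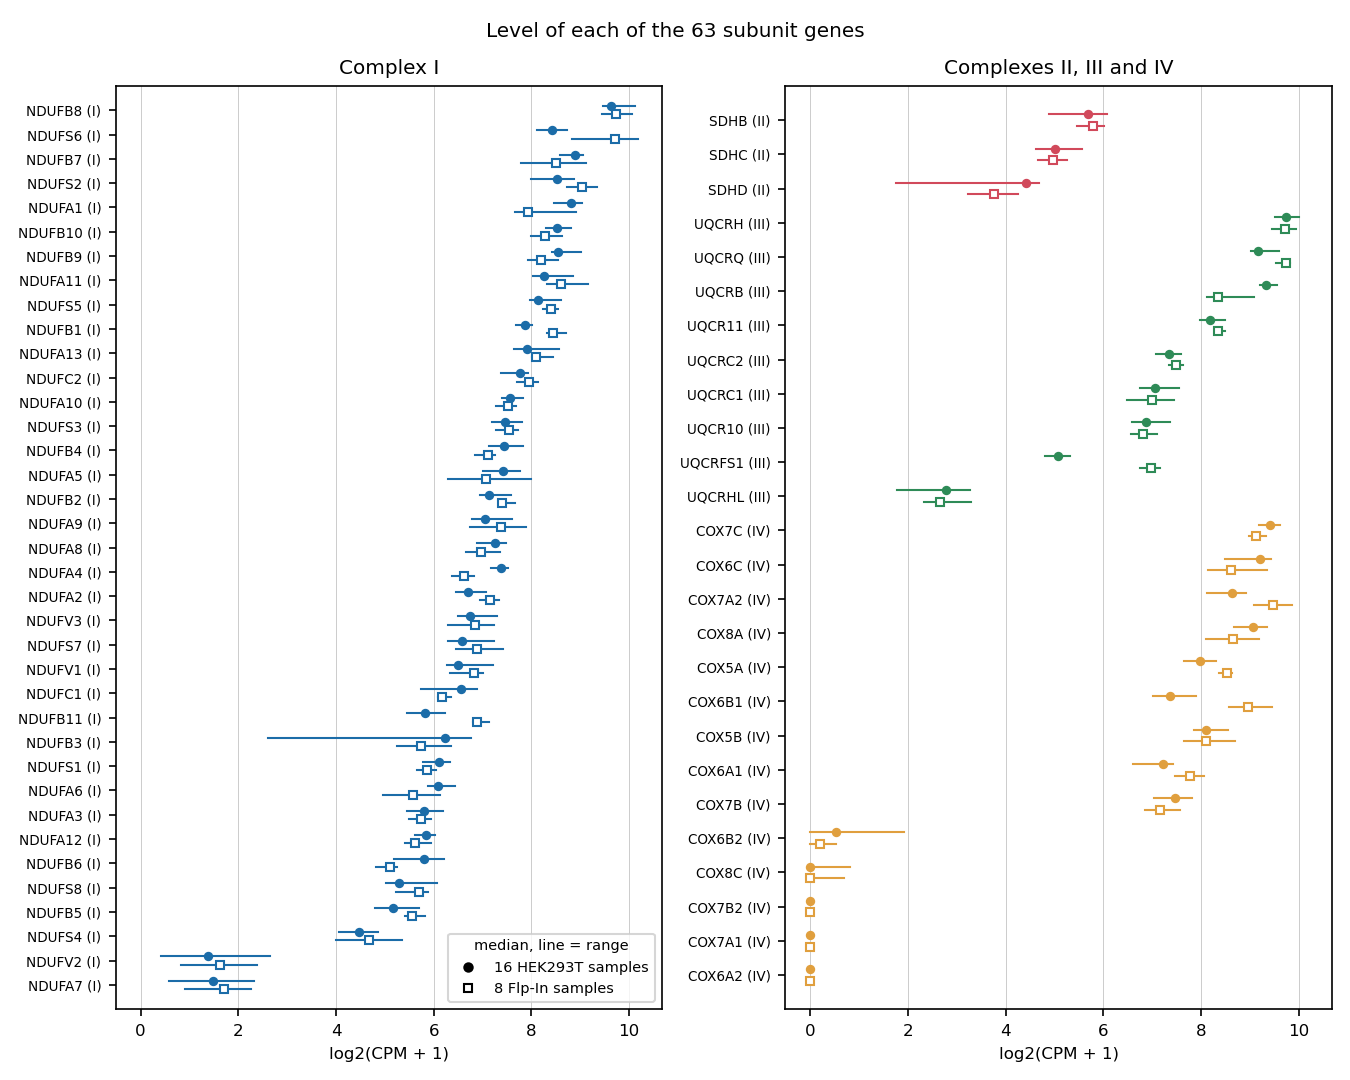
Level of each of the 63 genes as log2(CPM + 1), complex I on the left and complexes II, III and IV on the right. Filled circles are the median of 16 HEK293T samples, open squares that of 8 Flp-In samples, and lines span the lowest to the highest sample; UQCRH is the highest with a mean of 847 CPM, and COX6A2, COX7A1 and COX7B2 sit at 0.

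The genes also differed in how far they varied between samples. The SD of log2(CPM + 1) over the 24 samples was 0.14 for UQCRH, 0.14 for NDUFA10, 0.14 for UQCR11, 0.15 for NDUFS3 and 0.16 for NDUFB8. The largest were 0.91 for UQCRFS1, the Rieske iron-sulfur protein of complex III, 0.80 for NDUFB3, 0.80 for COX6B1, 0.67 for NDUFS6 and 0.65 for SDHD. UQCRFS1, COX6B1 and NDUFS6 differed between the lines, and NDUFB3 and SDHD had by far their lowest level in 1 library, the second of RPRD1A_RPRD2_KD. UQCRFS1 ranged from 27.1 to 39.0 CPM in the 16 HEK293T samples and from 106 to 142 CPM in the 8 Flp-In samples. COX6B1, which faces the intermembrane space in complex IV, ranged from 128 to 236 CPM and from 379 to 702 CPM in the same samples. The lines did not overlap in either gene.

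The subunit genes as a whole took 1.25% to 1.43% of the counts in genes in every library. Their summed level averaged 12842 CPM ± 176 (SD, n = 2) in the control group and 12708 to 12979 CPM in 6 of the 7 silenced groups. In RPRD1A_RPRD2_KD the sum was 12253 CPM in the first and 15164 CPM in the second library. The Flp-In groups averaged 13776 CPM ± 275 (FLP), 14242 ± 158 (FLP_TET), 13424 ± 734 (RPRD1B_FL) and 14556 ± 1409 (RPRD1B_FL_TET; SD, n = 2 each). Complex I gave 6437 to 8252 CPM of the sum, complex IV 2927 to 4193, complex III 2661 to 3473 and complex II 61.0 to 120 CPM. On this scale the 6 other silenced means differed from the control mean by less than the spread between the replicates, which was 107 to 828 CPM (SD) in these groups. Without TMM scaling all 7 silenced means, 13043 to 13515 CPM, lay above the control mean of 12804 CPM ± 178 (SD, n = 2). RPRD1A_KD, at 13109 CPM ± 297, and RPRD2_KD, at 13310 CPM ± 163, did so by more than the spread in either group compared. The order of the sums thus depends on the scaling.

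**Figure D2:**
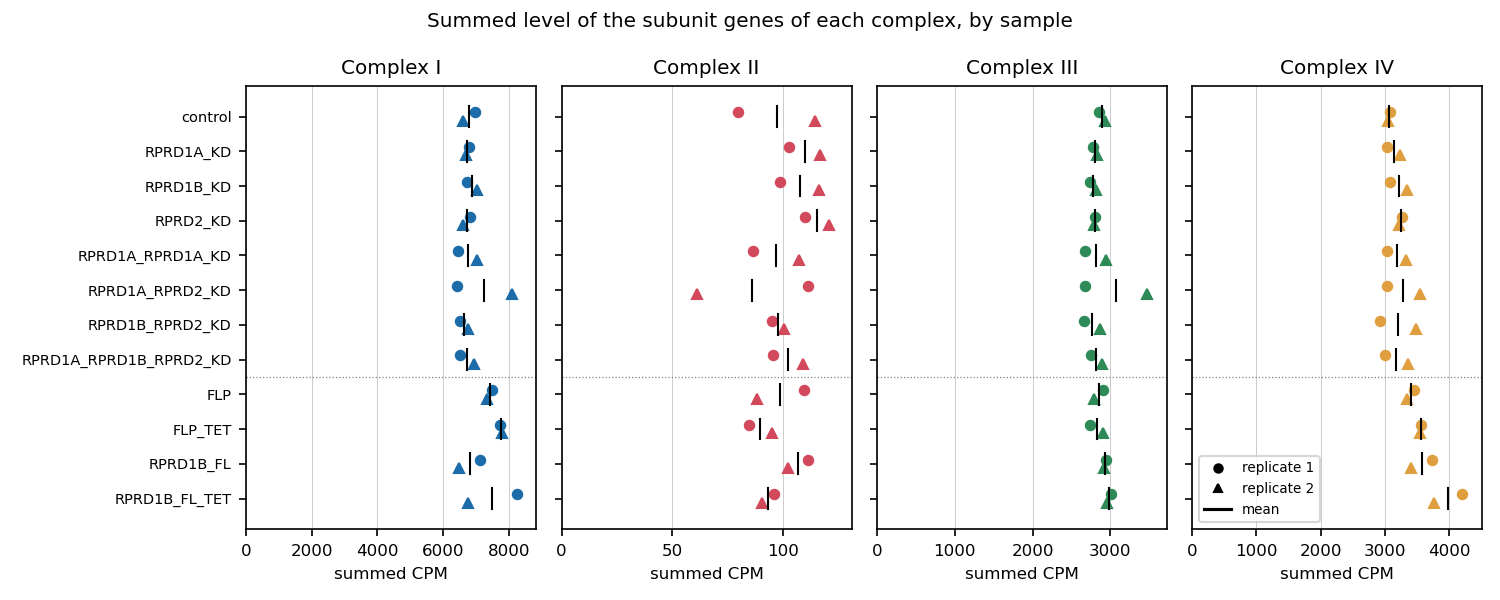
Summed CPM of the genes of each complex (x axis) in the 12 groups (rows); circles are replicate 1, triangles replicate 2 and bars the mean of 2. Silenced groups lie close to the control group except for the second RPRD1A_RPRD2_KD library, where complexes I and III are high (8088 and 3473 CPM) and complex II is low (61.0 CPM).

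Silencing the RPRD genes moved no subunit gene past the test. Each silenced group was compared with the control group by edgeR's quasi-likelihood test on all 11834 tested genes, and a gene was called at a Benjamini-Hochberg adjusted p under 0.05. The labels do not say that replicates are separate cultures, so the p-values measure only the spread between these samples. By edgeR, 0 of 56 subunit genes were called in RPRD1A_KD, where 0.00845% of all tested genes were, and 0 in RPRD1B_KD (0.00845% of all) and RPRD2_KD (0.00845%). With RPRD1A_RPRD1A_KD (0.0169% of all), RPRD1A_RPRD2_KD (0.00845%), RPRD1B_RPRD2_KD (0.0169%) and the group silenced for all 3 genes (0.0169%) the count was 0 as well. DESeq2 called 0 subunit genes in each as well. In this fit, which has no term for the replicate number, 1 or 2 of 11834 genes of any kind were called in each comparison.

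At an unadjusted edgeR p under 0.05, which is no call, the number of subunit genes also stayed low. For the single knockdowns it was 0 with RPRD1A_KD (2.64% of all tested genes), 0 with RPRD1B_KD (3.46%) and 1 with RPRD2_KD (3.84%). For the combined ones it was 1 with RPRD1A_RPRD1A_KD (3.99%), 2 with RPRD1A_RPRD2_KD (7.07%), 1 with RPRD1B_RPRD2_KD (2.51%) and 0 with all 3 silenced (3.99%). The genes in question were NDUFS4 (RPRD2_KD, higher), NDUFA3 (RPRD1A_RPRD1A_KD, lower), NDUFB5 and NDUFB6 (RPRD1A_RPRD2_KD, lower) and NDUFB5 (RPRD1B_RPRD2_KD, lower). All of them are accessory subunits of complex I. The median log2 fold change of the 56 genes lay between -0.003 and 0.011 in 6 comparisons, where that of all genes lay between -0.004 and 0.004. In RPRD1A_RPRD2_KD it was 0.07, against -0.006 for all genes.

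NDUFB5, in the membrane arm of complex I, had the lowest log2 fold change of the 56 genes in 5 of these comparisons and the third lowest in the others. It was at 40.7 and 51.2 CPM in the control samples, and the 14 silenced samples ranged from 26.7 to 42.5 CPM, so that only 2 silenced samples reached the lower control value. NDUFB5 differed by -0.68 on the log2 scale in RPRD1A_RPRD2_KD (SE 0.25, edgeR adjusted p = 0.65) and by -0.60 in RPRD1B_RPRD2_KD (SE 0.25, adjusted p = 1.0). Elsewhere the difference was -0.33 (RPRD1A_KD), -0.41 (RPRD1B_KD), -0.37 (RPRD2_KD), -0.39 (RPRD1A_RPRD1A_KD) and -0.38 (all 3 silenced). All 7 comparisons share the same 2 control samples, so their like directions are not independent of one another.

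NDUFS4 lay on the other side. Its control samples were at 18.96 and 15.58 CPM and its RPRD2_KD samples at 27.3 and 26.0 CPM, a log2 difference of 0.64 with an SE of 0.28 (adjusted p = 1.0). Its log2 fold changes were 0.39 in RPRD1A_KD, 0.33 in RPRD1B_KD, 0.48 in RPRD1A_RPRD1A_KD and 0.28 in RPRD1B_RPRD2_KD. Of the 14 silenced samples, the second RPRD1A_RPRD2_KD library (16.9 CPM) and the first with all 3 genes silenced (18.5 CPM) lay between the control values, and the other 12 lay above both. COX5A, a matrix-side subunit of complex IV, lay above both control samples (226 and 199 CPM) in 5 of the comparisons, at log2 fold changes of 0.21 (RPRD1A_KD), 0.34 (RPRD1B_KD), 0.27 (RPRD2_KD), 0.23 (RPRD1A_RPRD1A_KD) and 0.21 (all 3 silenced). NDUFA3, an accessory subunit, was at 69.2 and 55.2 CPM in the control samples and at 44.0 and 43.3 CPM in RPRD1A_RPRD1A_KD, a log2 difference of -0.50 with an SE of 0.21 (adjusted p = 1.0).

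The samples of the silenced and control groups did not overlap for 16 of 56 genes in RPRD1A_KD (28.2% of all tested genes), 8 in RPRD1B_KD (28.5%) and 17 in RPRD2_KD (32.2%). For the combined groups there were 14 in RPRD1A_RPRD1A_KD (31.3%), 5 in RPRD1A_RPRD2_KD (27.8%), 9 in RPRD1B_RPRD2_KD (28.1%) and 11 with all 3 silenced (31.5%), the members' shares being 8.93% to 30.4%. None of these genes passed the test, and the strongest in each direction are named here. Lower were NDUFA9 (-0.29) and NDUFS1 (-0.28) in RPRD1A_KD, NDUFA3 (-0.28) and NDUFA11 (-0.20) in RPRD1B_KD, NDUFA3 (-0.34) in RPRD2_KD and SDHC in RPRD1A_RPRD1A_KD (-0.48) and RPRD1A_RPRD1B_RPRD2_KD (-0.31; log2 fold changes), and NDUFC2 in RPRD1A_RPRD2_KD (-0.30). NDUFS1, the largest iron-sulfur subunit of complex I, was also lower in RPRD1B_RPRD2_KD at -0.26. Higher were NDUFA4 in RPRD1B_RPRD2_KD (0.14) and RPRD1A_RPRD1B_RPRD2_KD (0.21), NDUFS7 (0.43) and NDUFA6 (0.29) in RPRD1A_RPRD2_KD, and UQCRHL in RPRD1A_RPRD1A_KD (0.44, SE 0.49).

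**Figure D3:**
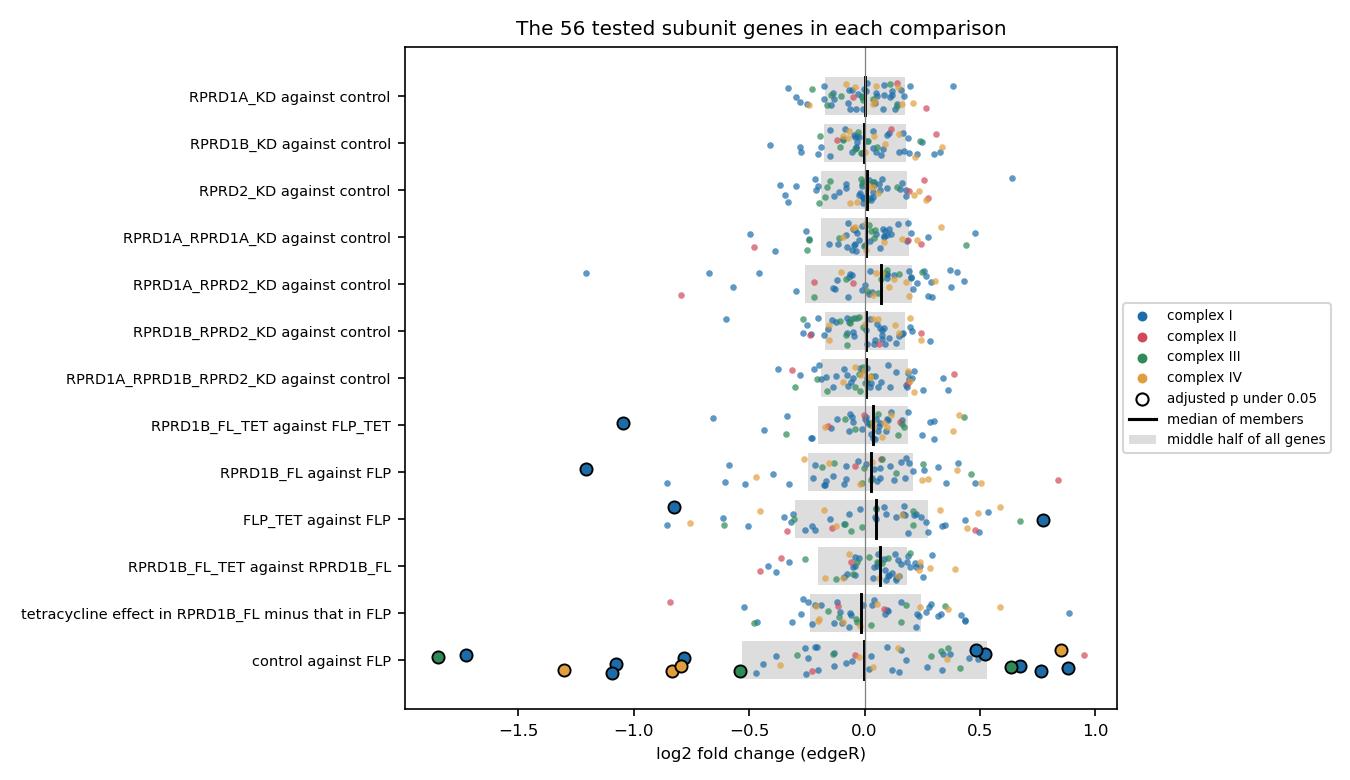
Log2 fold change (x axis) of the 56 tested genes in the 13 comparisons (rows), coloured by complex. Grey bars span the middle 50% of all tested genes, black bars mark the median of the 56, and ringed points have an adjusted p under 0.05; rings appear in no silenced group, for NDUFS6 in both RPRD1B_FL comparisons, for NDUFA9 and NDUFA1 in FLP_TET against FLP, and for 16 genes in control against FLP.

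The second RPRD1A_RPRD2_KD library stood apart from the other 15 HEK293T libraries in these genes. Of the 55 subunit genes at 10 CPM or more, 31 lay above and 9 below the range of the other 15, which is 72.7% of them, against 44% of all genes at that level. NDUFB3, a small accessory subunit of complex I, was at 5.08 CPM (15 counts) where the other 15 ranged from 51.3 to 107 CPM. SDHD was at 2.37 CPM where the others ranged from 9.48 to 24.5. The first library of the group had 58.7 CPM of NDUFB3 and 20.1 CPM of SDHD, within the range of the others.

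The genes that were high in this library came from several name series of complex I. NDUFA13 was at 378 CPM (others 199 to 272), while NDUFS1 and NDUFS3 lay within the range of the others. NDUFV1 was at 148 CPM (others 76.6 to 96.9), NDUFS8, which holds iron-sulfur clusters next to the quinone site, at 65.7 CPM (others 31.5 to 47.4) and NDUFS7, another quinone-site subunit, at 149 CPM (others 77.7 to 114). Low beside NDUFB3 and SDHD were NDUFC1 at 52.5 CPM (others 72.5 to 117), SDHB at 28.5 CPM (others 34.6 to 66.5) and COX6C at 359 CPM (others 472 to 686). Across the 55 genes, the deviation of this library from the mean of all samples went with the GC content of the transcripts (Spearman's rho 0.57 over genes, which share the library, and 0.46 over 8774 genes); in the other HEK293T libraries rho over the 55 lay between -0.33 and 0.22. Whether the base composition accounts for the deviation was not tested. In RPRD1A_RPRD2_KD against control the median log2 fold change of the tested subunit genes was 0.07. It ran from -0.05 to 0.18 with single libraries left out.

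NDUFS6 was lower in the RPRD1B_FL line than in its parent, with tetracycline and without it. It was at 1125 and 1152 CPM in FLP, at 1070 and 1112 in FLP_TET, at 533 and 452 in RPRD1B_FL and at 595 and 473 in RPRD1B_FL_TET. The line and its parent did not overlap, and the 16 HEK293T samples, from 277 to 421 CPM with a median of 339.7, lay below both. With tetracycline, NDUFS6 fell by a log2 fold change of -1.05 (SE 0.15, edgeR adjusted p = 0.00028) and was the 1 subunit gene called of 56, against 1.11% of all tested genes. Without tetracycline it fell by -1.21 (SE 0.15, adjusted p = 5.1e-05), again as the 1 called of 56, against 1.18% of all genes. DESeq2 also called NDUFS6 alone in each comparison. With single libraries left out, the log2 fold change of NDUFS6 ran from -1.20 to -0.90 with tetracycline and from -1.32 to -1.09 without it.

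NDUFV3, an accessory subunit of the NADH-oxidising tip of complex I, had lower values in the same line without passing the test. It was at 123 and 131 CPM in FLP, 150 and 137 in FLP_TET, 88.2 and 80.2 in RPRD1B_FL and 106 and 77.3 in RPRD1B_FL_TET. The line and its parent did not overlap. The log2 fold change was -0.65 (SE 0.17, edgeR adjusted p = 0.062) with tetracycline and -0.59 (SE 0.17, adjusted p = 0.098) without. Within the pair with tetracycline 20 of 56 subunit genes (35.7%) did not overlap, against 38.3% of all tested genes. Within the untreated pair it was 27 (48.2%), against 44.3% of all tested genes. In HEK293T cells NDUFV3 ranged from 89.4 to 157 CPM with a median of 107 CPM, across both Flp-In lines. Over the alternative settings of the comparison with tetracycline the adjusted p of NDUFV3 ran from 0.0034 to 0.60, and it passed the test in 5 of 12 of them, among them the correction for GC content, which was chosen after seeing the data.

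NDUFS6 lies on the short arm of chromosome 5 (5:1801400-1816605, plus strand, GRCh38) and NDUFV3 on chromosome 21 (21:42879644-42913304, plus strand). Genes of these regions were lower as a whole in the RPRD1B_FL line. The median log2 fold change of the 90 tested genes of 5p was -0.52 with and -0.52 without tetracycline, and that of the 105 tested genes of chromosome 21 was -0.70 and -0.73, while the median of all genes was 0.004 and 0.008. Of the genes on 5p 16 and 22 were called lower, and of those on chromosome 21 33 and 40. No other of the 63 genes lies in either region. The control siRNA samples differed from FLP in the same direction, with medians of -0.74 (95 genes of 5p) and -0.39 (117 genes of chromosome 21). Over the 24 samples, the genes whose log2(CPM + 1) followed NDUFV3 most closely among 8896 were PFKL (Pearson's r 0.81), HMGN1P38 (0.81) and CCT5 (0.78); the samples share lines and treatments, and r is a description.

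Promoters of NDUFS6, NDUFV3 and UQCRFS1 are shown for these reasons. NDUFS6 was the subunit gene called between the RPRD1B_FL line and its parent. NDUFV3, like many other genes, did not overlap between them. UQCRFS1 had the largest log2 difference of the 56 genes between control siRNA and FLP. Each runs from 250 bases before to 50 bases after the RefSeq start, 5′ to 3′ on the gene's strand (GRCh38.p14), with capitals for matches to 4 motifs searched on both strands: the NRF1 core GCGCATGC, the ETS core CCGGAAG bound by GABPA, the YY1 core AANATGGCG and the GC box GGGCGG.
NDUFS6 (5:1801157-1801456): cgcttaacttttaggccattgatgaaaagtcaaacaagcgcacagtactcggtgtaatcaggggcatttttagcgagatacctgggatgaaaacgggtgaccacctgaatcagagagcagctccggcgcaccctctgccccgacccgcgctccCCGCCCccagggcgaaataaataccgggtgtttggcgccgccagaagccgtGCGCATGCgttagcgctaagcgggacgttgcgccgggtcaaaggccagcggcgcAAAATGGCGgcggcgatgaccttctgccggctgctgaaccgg
NDUFV3 (21:42893059-42893358): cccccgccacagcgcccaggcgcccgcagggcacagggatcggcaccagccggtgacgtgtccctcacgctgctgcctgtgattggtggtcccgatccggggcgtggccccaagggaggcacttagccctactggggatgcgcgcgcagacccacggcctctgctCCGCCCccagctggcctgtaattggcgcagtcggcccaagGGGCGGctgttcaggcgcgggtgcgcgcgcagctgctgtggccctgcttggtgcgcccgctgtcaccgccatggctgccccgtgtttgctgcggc
UQCRFS1 (19:29213102-29213401): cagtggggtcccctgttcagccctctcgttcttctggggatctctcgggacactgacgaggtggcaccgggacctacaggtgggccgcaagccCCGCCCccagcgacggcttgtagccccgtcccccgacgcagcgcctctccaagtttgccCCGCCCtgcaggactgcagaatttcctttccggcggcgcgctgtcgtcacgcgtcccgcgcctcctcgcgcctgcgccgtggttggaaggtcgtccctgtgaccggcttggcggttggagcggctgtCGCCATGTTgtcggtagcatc
NDUFS6 held 1 NRF1 core, 1 YY1 core and 1 GC box, NDUFV3 held 2 GC boxes, and UQCRFS1 held 1 YY1 core and 2 GC boxes.

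NRF1, GABPA and YY1 are transcription factors known to act on many respiratory chain genes. Of the 63 subunit genes 52 had a promoter in the RefSeq table. The NRF1 core was in 9 (17.3%, against 3.05% of 35116 promoters of the same length), the ETS core in 14 (26.9%, against 10.3%), the YY1 core in 15 (28.8%, against 3.19%) and the GC box in 30 (57.7%, against 45%). These are matches of letters in a window, described without a test.

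Apart from NDUFS6, no subunit gene passed the test between the RPRD1B_FL line and its parent. At an unadjusted p under 0.05 there were 5 of 56 with tetracycline (10.3% of all tested genes) and 12 without (13.3%). COX5B, a zinc-binding subunit of complex IV, was at 270 and 267 CPM in FLP_TET and at 412 and 311 in RPRD1B_FL_TET (log2 fold change 0.41, adjusted p = 0.30), and at 199 and 228 in FLP and 329.6 and 275 in RPRD1B_FL (0.51, adjusted p = 0.14). COX7A2 did not pass the test either, at 0.38 and 0.40 with and without tetracycline. In the untreated pair NDUFS4 differed by -0.85 on the log2 scale (SE 0.25, edgeR adjusted p = 0.099) and SDHD by 0.84 (SE 0.29, adjusted p = 0.19). Both differences were larger in size than that of NDUFV3 in this pair (-0.59). The median of the 56 genes was 0.04 with and 0.03 without tetracycline. In the untreated pair the log2 fold change went with the GC content of the transcripts (Spearman's rho 0.43 over the 56 genes, 0.25 over all genes), and whether this bears on it was not tested.

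**Figure D4:**
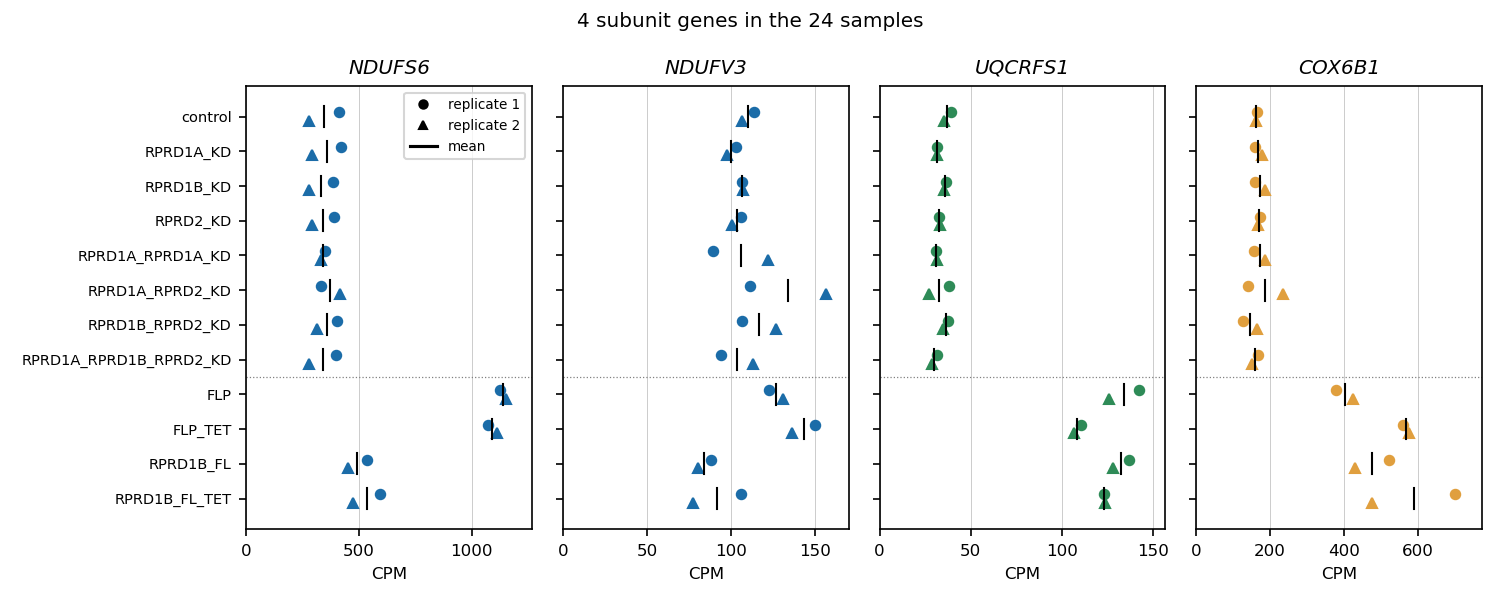
CPM (x axis) of NDUFS6, NDUFV3, UQCRFS1 and COX6B1 in the 12 groups (rows); circles are replicate 1, triangles replicate 2, bars the mean of 2, and the dotted line divides HEK293T from Flp-In groups. NDUFS6 is near 1100 CPM only in FLP and FLP_TET (1070 to 1152), NDUFV3 has its lowest group means in RPRD1B_FL and RPRD1B_FL_TET, and UQCRFS1 and COX6B1 are higher in every Flp-In sample than in any HEK293T sample.

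Tetracycline for 48 h in the parent line went with changes of 2 subunit genes in opposite directions. NDUFA9, at the joint of the arms of complex I, was at 106 and 142 CPM in FLP and at 215 and 212 in FLP_TET, and rose by a log2 fold change of 0.78 (SE 0.18, edgeR adjusted p = 0.047). NDUFA1, a small X-linked membrane subunit needed for complex I assembly, was at 479 and 268 CPM in FLP and at 201 and 220 in FLP_TET, and fell by -0.83 (SE 0.19, adjusted p = 0.047). They were the 2 called of 56, against 1.02% of all tested genes, and at an unadjusted p under 0.05 there were 18 of 56 (9 higher, 9 lower) against 22.7% of all genes. Both calls were lost when either FLP_TET sample or the first FLP sample was left out. They were also lost when only genes with a mean count of 50 or more were tested, and DESeq2 called COX6C and COX8A beside them. With single samples left out, the log2 fold change of NDUFA1 ran from -1.19 to -0.36, the latter without the first FLP sample. That of NDUFA9 ran from 0.58 to 1.01. NDUFA1 was higher in the HEK293T samples (353 to 522 CPM) than in either FLP_TET sample.

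The values of the subunit genes after tetracycline were ordered by the GC content of their transcripts. Spearman's rho between log2 fold change and GC content was 0.57 over the 56 genes and 0.54 over 11750 genes, a description over genes that share these 4 libraries. COX8A, UQCRC1 (a core protein of complex III) and NDUFA11 were higher in FLP_TET by 0.59, 0.67 and 0.54, and COX6C, NDUFA5 and UQCRB lower by -0.76, -0.85 and -0.61 (adjusted p 0.052 to 0.089). NDUFA1 and NDUFA9 did not follow that order, with transcripts of 53.8% GC for the lower and 45.5% GC for the higher gene. Over the 55 genes at 10 CPM or more, the deviation of single libraries went with GC content at rho -0.52 and -0.33 in the FLP libraries and 0.27 and 0.50 in the FLP_TET libraries. With a correction for GC content, chosen after seeing the data, NDUFA1 and NDUFA9 were the 2 called, against 1.4% of all tested genes. With a term for the replicate number 0 subunit genes were called, and 1 of 11948 genes of any kind. The part of base composition in these differences was not tested.

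**Figure D5:**
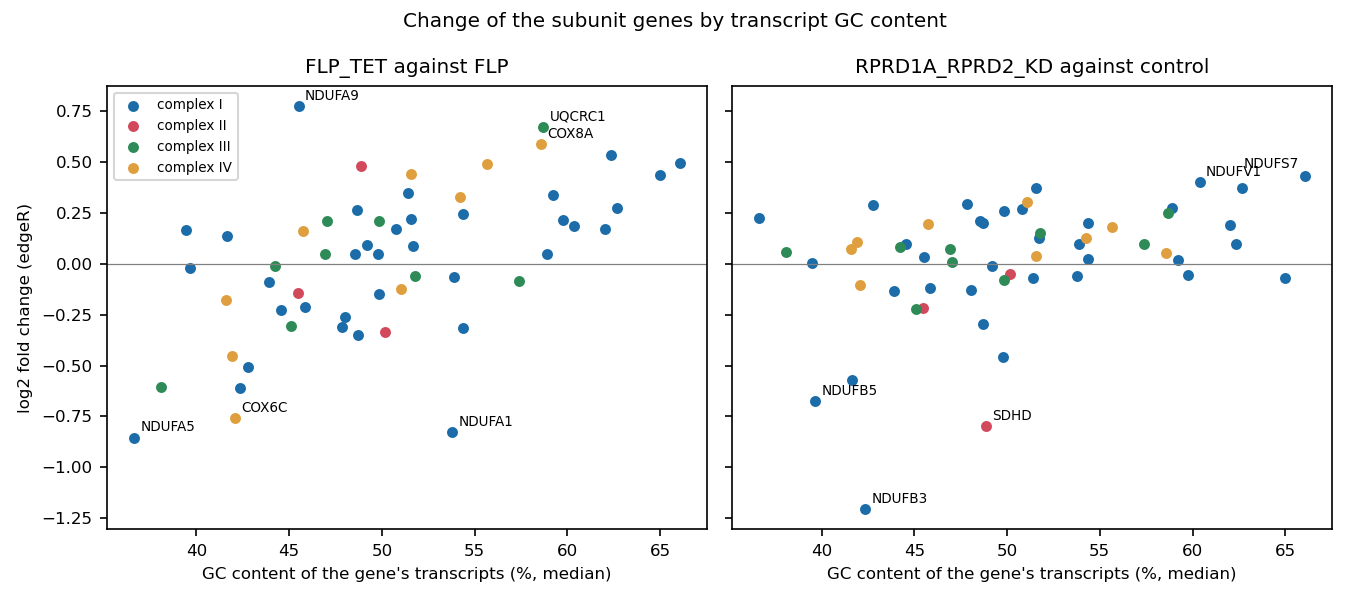
Log2 fold change (y axis) of the 56 genes against the median GC content of their transcripts (x axis, percent) in FLP_TET against FLP (left) and RPRD1A_RPRD2_KD against control (right), coloured by complex. On the left the points rise with GC content (rho 0.57 over genes), with NDUFA9 above and NDUFA1 below the others of like GC content; on the right NDUFB3 and SDHD lie lowest.

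In the RPRD1B_FL line itself, tetracycline moved no subunit gene past the test. By edgeR 0 of 56 were called (0% of all tested genes) and 2 had an unadjusted p under 0.05 (6.13%); DESeq2 called 0. These were COX8A, at 0.39 (SE 0.17), and SDHC, at -0.45 (SE 0.21; both adjusted p = 0.79). COX6A1 (0.24) and NDUFB3 (-0.38) were the next whose samples did not overlap. NDUFS6 had a log2 fold change of 0.09 (SE 0.15), while RPRD1B had 0.77 (SE 0.18, adjusted p = 0.40). The median log2 fold change of the tested subunit genes was 0.07, and it ran from -0.004 to 0.15 with single libraries left out.

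The tetracycline effect was compared between the lines by the interaction term. It called 0 of 56 subunit genes by edgeR (0% of all tested genes) and 0 by DESeq2, and 3 had an unadjusted p under 0.05 (3.99%). They were NDUFA1 with a difference of 0.89 (SE 0.27, adjusted p = 0.99), COX6C with 0.59 (SE 0.27) and NDUFC2 with 0.44 (SE 0.20). All 3 were lower with tetracycline in the parent by value, and their difference in the RPRD1B_FL line was less negative or positive. The median difference of the tested subunit genes was -0.01, and it ran from -0.04 to 0.07 with single libraries left out.

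The control siRNA group and untreated Flp-In cells differed in many subunit genes, at about the rate of all genes. The fit over all 24 samples called 16 of 56 (28.6%), where 33.4% of 12803 tested genes were called, and 21 of 56 had an unadjusted p under 0.05 (42.8% of all genes). Of the 16, 7 were higher in the control group (16.1% of all genes were) and 9 lower (17.4%). Cell line, siRNA transfection and any batch cannot be told apart in this comparison. The median log2 fold change of the 56 was -0.003, against 0.02 for all genes.

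Lower in HEK293T were subunits of all parts but complex II. UQCRFS1 was at 39.0 and 35.2 CPM in the control samples and at 142 and 125 in FLP (log2 fold change -1.85, SE 0.18, adjusted p = 1.1e-08), NDUFS6 at 410 and 279 against 1125 and 1152 (-1.73, SE 0.22, adjusted p = 1.7e-06), and COX6B1 at 164 and 162 against 379 and 426 (-1.30, SE 0.21, adjusted p = 3.3e-05). No pair of these groups overlapped. The others were NDUFS4 (-1.10), NDUFB11 (-1.08), COX5A (-0.84), COX7A2 (-0.80), NDUFB1 (-0.78) and UQCRQ (-0.54). NDUFB11, an X-linked membrane subunit, was at 60.2 and 48.1 CPM in the control samples and at 116 and 112 in FLP.

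Of the 7 higher in HEK293T, 4 were membrane-arm subunits of complex I. They were NDUFB6 (log2 fold change 0.88), NDUFA4 (0.76), NDUFB7 (0.68), NDUFB10 (0.52) and NDUFB9 (0.48) of the complex I name series, COX8A (0.85) of complex IV and UQCRB (0.63) of complex III. NDUFA4, since found to belong to complex IV, had 143 to 182 CPM in the 16 HEK293T samples and 82.4 to 113 in the 8 Flp-In samples. UQCRB had 593 to 754 and 278 to 545 CPM. The call of NDUFB9 (adjusted p = 0.049) was lost in 9 of 12 alternative settings (adjusted p from 0.010 to 0.32) and that of NDUFB7 (adjusted p = 0.041) in 7 of 12 (0.0039 to 0.25). With single libraries left out, the log2 fold change of NDUFB9 ran from 0.31 to 0.59 and that of NDUFB7 from 0.51 to 0.81.

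Over all 24 samples, the lines did not overlap in 10 of the 55 subunit genes at 10 CPM or more (18.2%), against 21.9% of all genes at that level. The 2 higher in every HEK293T sample were NDUFA4 and UQCRB. The 8 higher in every Flp-In sample were UQCRFS1, NDUFS6, COX6B1, NDUFB11, COX7A2, COX5A, COX6A1 and NDUFB1. Complexes I, III and IV each held genes on these lists and complex II held none.

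The partners of these genes moved little in the silenced groups. Of 7 tested subunits and carriers outside the name rule and 16 tested ATP synthase genes, 0 were called by edgeR in any of the 7 silencing comparisons, and at an unadjusted p under 0.05 there were 0 ATP synthase genes in each and at most 1 of the 7 others. ATP5O, the stalk protein of the ATP synthase, whose gene lies on chromosome 21, was at 1455 and 1355 CPM in FLP, 1236 and 1368 in FLP_TET, 806 and 856 in RPRD1B_FL and 752 and 873 in RPRD1B_FL_TET. Between the RPRD1B_FL line and its parent it fell by -0.69 (SE 0.14, edgeR adjusted p = 0.011) with tetracycline and by -0.75 (SE 0.14, adjusted p = 0.0051) without. It was the 1 of 16 ATP synthase genes called in each, against 1.11% and 1.18% of all tested genes. Between control siRNA and FLP, 5 of 16 ATP synthase genes were called, against 33.4% of all tested genes. ATP5G1 was higher (1.07), and ATP5O (-0.99), ATP5I (-0.68), ATP5J (-0.63) and ATP5A1 (-0.61) were lower. Of the 7 others, CYCS, which encodes cytochrome c, was at 439 and 529 CPM in the control samples and at 184 and 175 in FLP (log2 fold change 1.43), CYC1, the cytochrome c1 of complex III, was higher (0.69), and COX4I1 (-0.57) and COX7A2L (-0.47) were lower. SDHA, the flavin subunit of complex II, had group means of 4.66 to 9.37 CPM; it has pseudogene copies, and its level is uncertain. The 13 subunits encoded by mitochondrial DNA are listed at 0 in all 24 tables, so nuclear and mitochondrial subunits were not compared.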

How the data were processed

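RNA was measured in 24 libraries by 3′ end sequencing with a QuantSeq REV kit, per the labels' protocols. Each deposited table holds whole read counts per gene name; the authors used FastQC, STAR, HTSeq, DESeq2 and the GRCh38 build, per the submitters' processing notes, and versions, annotation and strand setting are not given in the sources used here. The 5 HTSeq rows that name no gene (no feature 15.3% to 36.7% of reads) were left out. Genes passed edgeR's filterByExpr (minimum count 10, minimum total 15). Separate quasi-likelihood fits (edgeR 4.0.16, R 4.3.3, TMM factors) covered the 16 HEK293T samples, the 8 Flp-In samples and all 24, with group as the only term and Benjamini-Hochberg adjustment over all genes tested; 13 comparisons were made. SE is the log2 fold change divided by the root of F. DESeq2 1.42.0, RLE size factors, other filters, a replicate block, a fit of the compared groups, omission of single libraries and, added after seeing the data, a lowess correction for GC content (span 0.3) were alternatives. The fits were tested on simulated data. CPM for levels, SD and correlations came from TMM factors over 24 samples (pseudocount 1 for logs). Gene positions and transcript GC content came from GENCODE release 29, promoters from RefSeq. Named genes were those called, the strongest in each direction without overlap between samples, and members that differ between lines or stand out in level. The members and gene lists were chosen with earlier results of these data known. The result of 1 marker list is not reported here.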

Additional observations from a re-analysis of the deposited data

How the results depend on the processing

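Of 172 counts of called subunit genes under alternatives, 148 stayed within 1.5 times the count reported and 24 moved; the cause was not tested, except that some settings test fewer genes or samples. With all libraries kept, 1 subunit gene was called in RPRD1A_RPRD2_KD when there was no filter on low counts, against 0.369% of all genes. In RPRD1B_FL_TET against FLP_TET 2 were called with no filter (1.01% of all genes) and with the GC correction (2.14%). The count was also 2 with that correction and the replicate block (2.3%), and with only the groups compared (1.69%). In RPRD1B_FL against FLP there were 3 with no filter (1.29% of all genes) and 5 with the GC correction (2.56%). With that correction and the replicate block there were 6 (2.87%). In FLP_TET against FLP there were 9 with no filter, 0 with a mean count of 50 or more and 0 with the replicate block. There were 4 with DESeq2, 4 with the GC correction and block, and 14 with only the groups compared. Over all genes 122 were called, against 1 with the block, 0 with a mean count of 50 or more and 217 with DESeq2. Over all genes 249 were called with the GC correction and block, 762 with no filter and 1273 with the compared groups alone. Tetracycline in RPRD1B_FL gave 0 to 2, the interaction 0 to 1 and control against FLP 10 to 14 without single libraries. Each fit without a library leaves 1 sample in a group. Between control and FLP the share of all genes called was also lower in each such fit. The lower counts there are thus not particular to the subunit genes. Of 830 values of named genes 768 kept direction and side of the threshold, 38 lost the call, 18 gained it and 6 reversed. NDUFC2 in RPRD1A_RPRD2_KD went from -0.30 to 0.0022 without the second library and with the replicate block. NDUFS6 in RPRD1B_FL_TET against RPRD1B_FL went from 0.09 to -0.0089 with the GC correction and -0.0094 with the block added, and ran from -0.068 to 0.23 without single libraries, as NDUFV3 did from -0.13 to 0.30. Same-numbered samples share only a number in the labels: deviations of such pairs correlated at a mean r of 0.32 in HEK293T (28 pairs) and -0.016 in Flp-In samples (6 pairs). The replicate block alone changed no other count of subunit genes called by over 1.5 times. Over all genes it called 1 to 13 in the 7 silencing comparisons (13 in RPRD1A_RPRD2_KD, 9 in RPRD1A_RPRD1A_KD and 8 with all 3 silenced), where 1 or 2 were called without it. When the outlying RPRD1A_RPRD2_KD library was also omitted, the blocked fit called 25 to 167 (up to 1.36% of genes, in RPRD2_KD), and 0 subunit genes in each. With 2 samples a group and totals from 1817246 counts, small differences of low genes such as SDHD were not detectable at this depth.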

Other observations

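Genes of neighbouring pathways, from lists named with earlier results known, were read in the same fits. Between the control siRNA group and FLP (33.4% of all tested genes called), 6 of 13 regulators of respiratory genes were called. POLRMT, the mitochondrial RNA polymerase (log2 fold change 1.08), TFB1M, a mitochondrial rRNA methyltransferase (1.31), and the coactivator PPARGC1B (0.73) were higher in the control group, and GABPB1, the partner of GABPA (-1.20), and TFAM, which packages mitochondrial DNA (-0.60), were lower. PPARGC1A, the best known coactivator of these genes, had 1 and 0 counts in the control samples and 11 and 20 in FLP. In the citrate cycle 4 of 13 were called, with FH (0.76) and SUCLG2 (0.74) higher and IDH3B (-0.81) and SUCLG1 (-0.67) lower. In glycolysis 5 of 15 were called, with LDHA (0.79) higher and GPI (-1.24), PFKP (-1.02), ENO1 (-0.61) and HK1 (-0.55) lower.

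After tetracycline in the parent line (1.02% of all genes called), 1 of 14 glycolysis genes passed the test. PFKL, the liver form of phosphofructokinase, was at 114 and 146 CPM in FLP and at 226 and 240 in FLP_TET (log2 fold change 0.83, SE 0.18, edgeR adjusted p = 0.046). No gene of any kind was called in this comparison without either FLP_TET library, without the first FLP library, or with only genes at a mean count of 50 or more, so that this call was lost there too. Of the 14 genes 13 had a positive log2 fold change, with a median of 0.42 against -0.006 for all genes, and 8 had an unadjusted p under 0.05 (57.1%, against 22.7% of all genes). These values went with GC content of the transcripts at a Spearman's rho of 0.81 over the genes, whose part in the result was not tested. PFKL, which lies on chromosome 21, was also lower in RPRD1B_FL_TET (109 and 84.0 CPM) than in FLP_TET (-1.28, SE 0.18, adjusted p = 0.00033).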
